A study of Homo sapiens with 2 samples.

Results

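The organic cation and anion uptake carriers are the products of the SLC22 and SLCO gene families, and they were taken here as all non-control probes whose gene name starts with SLC22A or SLCO. This rule found 32 of the 30238 gene names on the array, 21 of them SLC22A and 11 SLCO, with 47 of the 41000 probes. A total of 20 members had 1 probe and 12 had several. All counts of carriers include SLC22A18AS, an antisense gene whose name meets the rule and which is not known as a carrier. Expression was measured in A2780, a human ovarian carcinoma cell line, with 2-colour Agilent arrays covering the whole human genome, each of which received RNA from one resistant line in one dye and from a control in the other. The lines were A2780CBN, selected in rising doses of carboplatin up to 22.2 µM, and A2780CBNDXL, selected in carboplatin and docetaxel together. The dose of that combination is not given here, because the labels and the study's methods differ on it. By the study's methods each resistant line had a co-cultured control of its own, A2780 cells kept in culture alongside, and the labels name the control of both lines A2780CC. For each line the RNA of 3 isolations was pooled into 1 sample, which was hybridized to 4 arrays, with forward labelling on arrays 1 and 3 and reverse labelling on arrays 2 and 4, over 2 slides (arrays 1 and 2, arrays 3 and 4).

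Carriers of the SLC22 family move organic cations, anions, zwitterions and carnitine across the cell membrane, most of them in kidney, liver and gut. The SLCO genes encode the organic anion transporting polypeptides, which take up bile salts, steroid and thyroid hormone conjugates, prostaglandins and many drugs. Organic cation carriers have been studied as routes of entry for platinum drugs, and the liver members of the SLCO1 group as routes of entry for taxanes.

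The comparison asks which of these carriers differ in RNA level between a resistant line and its co-cultured control. A signal is the processed intensity of a channel, in arbitrary units, and a change is the log2 ratio of the resistant channel to the control channel, averaged over both labelling directions and given with the SD of the 4 arrays. This SD covers labelling and hybridization error only, since each line is 1 sample, and the number of arrays limits its precision. Between 59.8 and 67.5% of the spots of an array were well above background in a channel by the software's own test. Array 1 of A2780CBNDXL stood apart. The 264 probes spotted repeatedly had a median coefficient of variation of 26.1% (green) and 26.6% (red) there, against 5.53 to 6.90% on the other arrays. The SD of the log2 ratio of the same spots was 0.09 on this array and 0.07 to 0.10 on the others.

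The epithelial markers KRT8, KRT18 and EPCAM and the ovarian carcinoma marker PAX8 were detected in both lines, while CDH1, KRT7, WT1 and MUC16 were above background in neither channel of any array. EPCAM was higher in both lines, at 2.07 ± 0.30 in A2780CBN (mean signal 637 against 151) and 1.67 ± 0.24 in A2780CBNDXL (805 against 266), and KRT18 in A2780CBN, at 1.05 ± 0.16 (2562 against 1243). The others stayed under the limit, with KRT8 at -0.37 ± 0.17 and 0.18 ± 0.07 and KRT18 in A2780CBNDXL at 0.51 ± 0.06. PAX8 was dim, at 0.21 ± 0.43 in A2780CBN (mean signal 55.7 against 47.8) and 0.33 ± 0.40 in A2780CBNDXL (53.5 against 41.3). KRT19, detected in A2780CBN alone, was at -0.48 ± 0.51 there (31.7 against 41.8). The 9 markers of this list on the array summed to a mean signal of 3907 in A2780CBN and 2280 in its control. For A2780CBNDXL the sum was 3879, and 2583 in its control. KRT18 gave the highest signal of the list in each channel, which does not rank RNA levels between genes. The mesenchymal marker VIM had a mean signal of 256624 in A2780CBN against 127329 in its control, a log2 ratio of 1.08 ± 0.67, and of 246961 in A2780CBNDXL against 200045 in its control, at 0.30 ± 0.04. CDH2, of the same list, was at -0.21 ± 0.14 in A2780CBN. In A2780CBNDXL it was bright, with a mean signal of 10757 against 3663. Its log2 ratio there was 1.55 ± 0.28 over the arrays with a value. It missed the detection rule by 1 array in each channel, so it was not called. An array on which all spots of a probe were left out as outliers counts as not above background. Of the 9 markers of other cells, PTPRC, PECAM1, CDH5, ALB and APOA1 were above background on no array. CD14 and the fibroblast genes COL1A1, COL1A2 and DCN were detected, and this list summed to 783 in A2780CBN and 1908 in its control, and to 7899 in A2780CBNDXL and 7623 in its control. Most of the difference between the controls lay in COL1A2, with a mean control signal of 1534 beside A2780CBN and 6766 beside A2780CBNDXL. The sums hide changes in both directions. In A2780CBNDXL DCN was higher at 3.62 ± 0.29 (mean signal 5760 against 473) and COL1A1 at 2.04 ± 0.20 (1072 against 265), while COL1A2 was lower at -2.81 ± 0.07. In A2780CBN DCN was higher at 2.21 ± 0.46 (287 against 65.5) and COL1A2 lower at -5.67 ± 0.15, with COL1A1 at 0.99 ± 0.08. The control channels beside the lines thus differed in part, so each line was also set against the control signals from its counterpart's arrays, called the swapped control here. By it the marker calls of KRT18 (0.93), VIM (0.57) and DCN (-0.63) in A2780CBN and of COL1A2 (-0.77) in A2780CBNDXL were lost, and CDH2 in A2780CBN (-1.49) passed the limit in the mean. A normexp background correction with an offset of 50, which draws the ratios of dim probes toward 0, took EPCAM below the limit in both lines (0.96 and 0.84), and KRT18 (0.89) and DCN (0.74) in A2780CBN. For the carriers the outcome of both alternatives is given beside the calls they change, and for the linked genes it is gathered after the last list. The part of these marker differences in the results was not tested.

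Most carriers were below detection. A gene counted as detected when one of its probes was well above background on each of the 4 arrays of a line, always in the same channel. This held for 10 of the 32 carriers in A2780CBN, beside 60.3% of all gene names, and for 10 of 32 in A2780CBNDXL, beside 57.8%. A total of 9 carriers were detected in both lines, 11 in either line and 21 in neither. Above background in both channels on all arrays were 8 carriers in A2780CBN and 7 in A2780CBNDXL. The undetected members were SLC22A2, SLC22A3, SLC22A4, SLC22A6, SLC22A8, SLC22A9, SLC22A10, SLC22A11, SLC22A13, SLC22A14, SLC22A16, SLC22A24, SLCO1B1, SLCO1B3, SLCO1C1, SLCO2A1, SLCO2B1, SLCO3A1, SLCO4C1, SLCO5A1 and SLCO6A1. Among them are the kidney cation carrier SLC22A2 and the liver carriers SLCO1B1 and SLCO1B3, the members best known for moving platinum drugs and taxanes, whose probes were above background on no array of either line. Their RNA was not detectable at this signal, which does not show that it is absent. Fewer cells with a transcript and less of it per cell cannot be told apart in such samples.

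**Figure D1:**
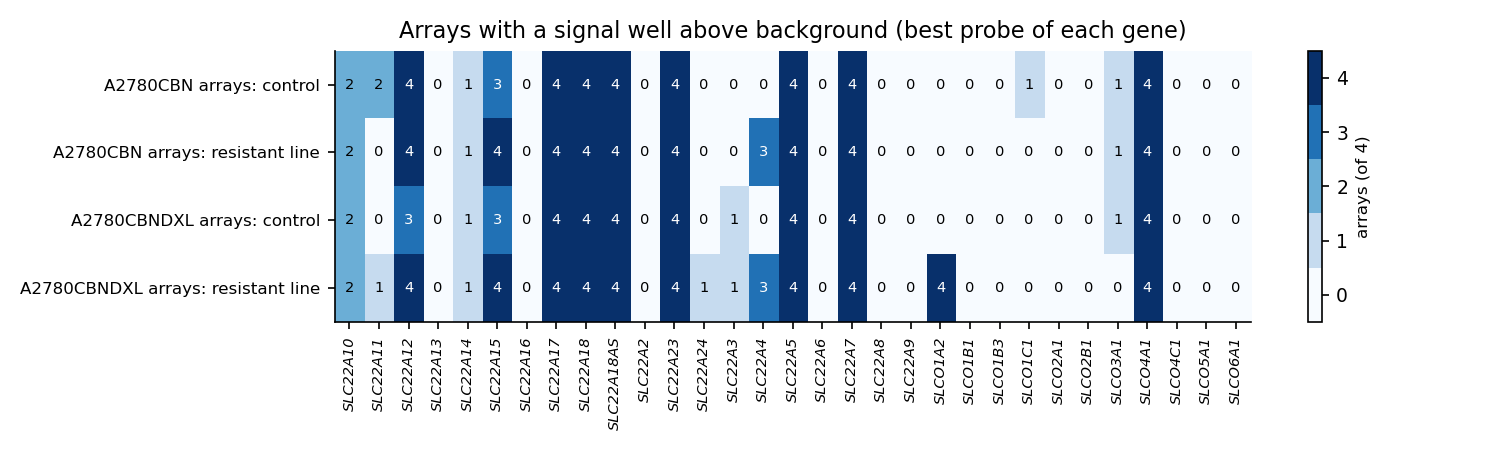
Number of arrays (0 to 4) on which each carrier named in the text was well above background, for the resistant line and the control channel of each line's arrays; for genes with several probes the probe with most such arrays is counted in each channel. A total of 13 carriers are at 0 in every channel, and 7, including SLC22A5, SLC22A17, SLC22A18 and SLCO4A1, are at 4 throughout.

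A carrier counted as changed when its log2 ratio was at least 1 in size (2-fold), had the same sign on all 4 arrays, and came from a probe that met the detection rule, with the probe of highest mean signal standing for its gene. In A2780CBN 3 of the 10 carriers that could be tested this way were changed, where 12.6% of 17949 genes were, with 2 carriers higher (8.01% of all genes) and 1 lower (4.57% of all genes). In A2780CBNDXL 3 of 10 were changed, where 17.0% of 17120 genes were, with 2 higher (7.72% of all genes) and 1 lower (9.23% of all genes). The median log2 ratio of the tested carriers was -0.01 in A2780CBN and 0.38 in A2780CBNDXL, beside -0.06 and 0.04 over all genes tested. With so few carriers tested, these counts set the family apart from other genes in neither line. In all, 4 carriers were changed in either line. SLC22A15 was higher and SLCO4A1 lower in each line against its own control, SLC22A18 was higher in A2780CBN and SLCO1A2 in A2780CBNDXL. Each line was set against the control on its own arrays, and the values of the lines stand side by side.

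**Figure D2:**
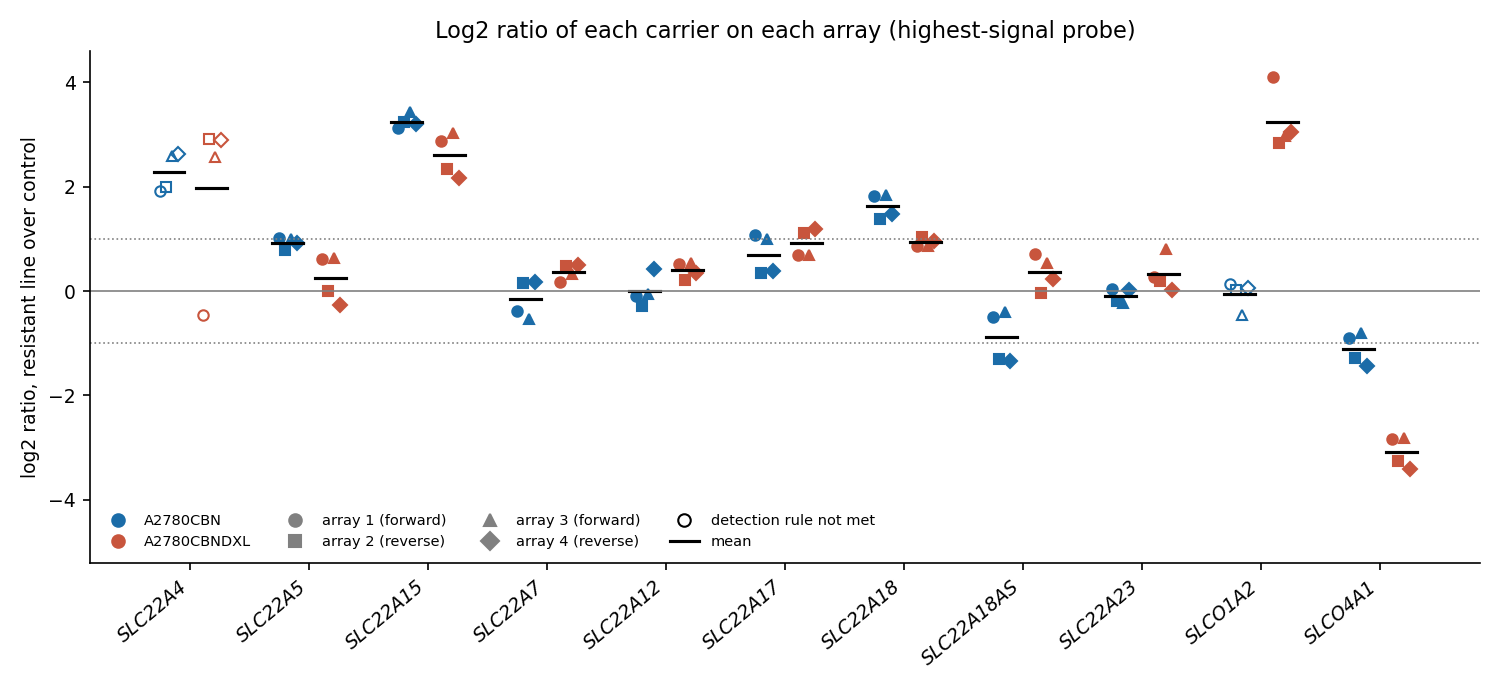
Log2 ratio of the resistant to the control channel on each array for 10 detected carriers and SLC22A4, at the probe with the highest signal of each gene; symbols mark arrays, open symbols a line in which the detection rule was not met, bars the mean, and dotted lines the 2-fold limit. SLC22A15 lies far above and SLCO4A1 below 0 on all arrays of both lines, and SLCO1A2 is high in A2780CBNDXL. The controls of SLCO1A2 and SLC22A4 were above background on no array, so their plotted ratios are no measured size.

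Among the cation carriers, SLC22A2 was above background on no array, and SLC22A3, a cation carrier of many tissues, on 1 array of A2780CBNDXL, in both channels.

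Among the carriers of zwitterions and carnitine, SLC22A15 had the largest ratio of the tested carriers in A2780CBN. This little studied carrier has been linked to zwitterions such as ergothioneine and carnitine. Its probe, A_23_P388900, lies at chr1:116413334-116413393 on the plus strand of NCBI36. In A2780CBN the signals of the resistant line were 243, 277, 195 and 255 on arrays 1 to 4, and those of the control 28.1, 29.3, 18.1 and 27.9. Every array of this line had the resistant channel far above the control channel, and the latter exceeded background on 3 of the 4 arrays. The log2 ratio was 3.25 ± 0.14, a 9.48-fold difference. In A2780CBNDXL the resistant line gave 208, 241, 224 and 204 and the control 28.2, 47.8, 27.5 and 45.5, again with the control above background on 3 arrays. The channels did not overlap on any of these arrays either, and the ratios were larger on the forward arrays (2.88 and 3.03) than on the reverse ones (2.33 and 2.16). The mean was 2.60 ± 0.42, or 6.07-fold, and 2.64 without array 1. With the swapped control the log2 ratios were 2.77 in A2780CBN and 3.08 in A2780CBNDXL. The call was lost in both lines when both channels had to be above background on all arrays, and with normexp, which gave 0.75 and 0.74.

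**Figure D3:**
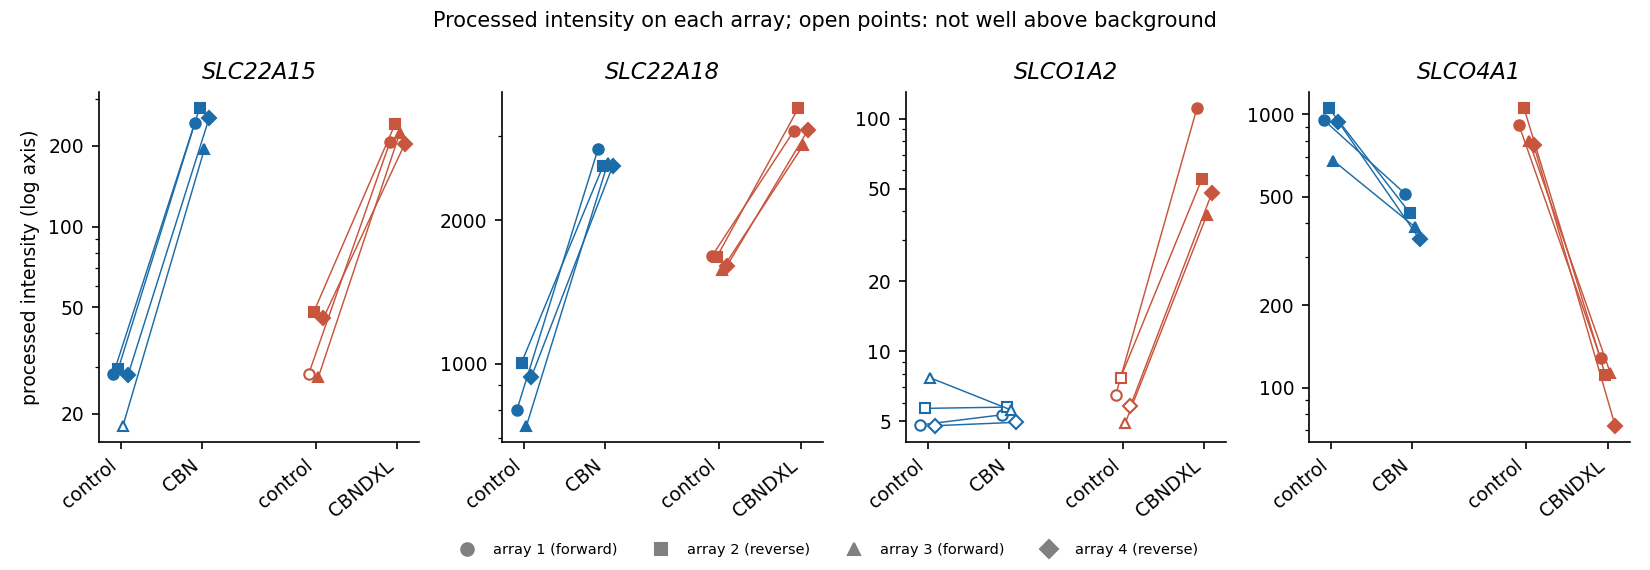
Processed intensity (log axis) of the 4 changed carriers in the control channel and the resistant channel of each array, joined by lines, with A2780CBN at the left and A2780CBNDXL at the right of each panel; open points were not well above background. SLCO4A1 falls to between 72.6 and 129 in A2780CBNDXL from a control between 772 and 1055.

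SLC22A5, the sodium-dependent carnitine carrier, was tested in both lines and changed in neither. In A2780CBN its log2 ratios were 1.01, 0.78, 1.00 and 0.92, with a mean of 0.93 ± 0.11 just under the limit, and background-subtracted signals centred on the median of each array took it over the limit at 1.02. In A2780CBNDXL the mean was 0.25 ± 0.45, with 0.62 and 0.63 on the forward arrays and no positive value on the reverse arrays. SLC22A4, a carrier of ergothioneine, lies beside SLC22A5 on chromosome 5 and missed the detection rule by 1 array in each line. It is described because of its values, which had been seen. In A2780CBN its resistant channel gave 17.3, 36.8, 31.6 and 37.4 and the control 4.57, 9.27, 5.27 and 6.08, with the resistant line above background on arrays 2 to 4 and the control on none. In A2780CBNDXL the resistant line gave 8.58, 34.8, 25.7 and 40.3 and the control 11.7, 4.61, 4.36 and 5.46, above background on the same arrays. The resistant channel was thus the higher one except on array 1 of A2780CBNDXL. Where a channel is above background on no array of a line, the fold is given as a lower bound. It is the mean of the brighter channel over the lowest signal called well above background on each array, or over the probe's own signal where that is higher, after scaling between arrays. SLC22A4 was at least 1.38-fold higher in A2780CBN and at least 1.09-fold higher in A2780CBNDXL. Without array 1, or on slide 2 alone, it met the rule for a change in both lines, by ratios over a control at background. SLC22A16, a carnitine carrier of testis, was above background on no array.

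Among the anion carriers, SLC22A7, a carrier of the liver and kidney, and SLC22A12, which takes urate back up in the kidney, were detected in both lines and changed in neither. For SLC22A7 this rested on A_23_P93217, as the other probe of the gene, A_23_P93213, was above background on no array of either line. The probe A_23_P93217 had signals of 71.7 to 146 in A2780CBN and 74.7 to 140 in the control. Its log2 ratio there was -0.15 ± 0.37. In A2780CBNDXL its log2 ratio was 0.36 ± 0.15, positive on all 4 arrays and under the limit. With the swapped control the means were 0.34 in A2780CBN and -0.13 in A2780CBNDXL, so the sign turned in both lines and SLC22A7 has no settled direction. The log2 ratio of SLC22A12 was -0.01 ± 0.30 in A2780CBN and 0.40 ± 0.16 in A2780CBNDXL, and -0.23 and 0.63 with the swapped control. Its signals were lower on slide 1 than on slide 2 in each line and channel, with 40.9 and 48.9 against 126 and 151 in A2780CBN. The other 7 anion carriers of the SLC22 family on the array were undetected. The SLC22A24 probe A_24_P21829 gave a signal of 200 in A2780CBNDXL on array 1 alone, with 10.2 to 13.2 on its other arrays. It was looked at because of this array. No ratio is given, since the control was above background on no array.

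SLC22A18 is a carrier gene of unsettled substrate in the imprinted region at the end of the short arm of chromosome 11, where the maternal copy is the one mainly expressed. The reference table lists it today as SLC67A1. The probe that stood for it, A_23_P139260, lies at chr11:2902911-2902970 on the plus strand of NCBI36. In A2780CBN the resistant line gave signals of 2823, 2597, 2639 and 2599, and the control 798, 1005, 741 and 938. All arrays had the resistant channel far above the control, with no overlap. The log2 ratio was 1.62 ± 0.24, or 3.08-fold. In A2780CBNDXL the resistant line gave 3070, 3438, 2874 and 3095, and the control 1683, 1677, 1575 and 1601. The channels did not overlap in this line either, but the log2 ratio of 0.93 ± 0.08 stayed under the limit. The line channels of A2780CBN and A2780CBNDXL differed by 0.09 ± 0.15 on the log2 scale over matched arrays, while the control channels beside them differed by 0.79 ± 0.41. The swapped control gave 0.84 in A2780CBN and 1.72 in A2780CBNDXL, so that the call passed from one line to the other. The other probe, A_23_P127868, gave 1.53 ± 0.57 in A2780CBN and 1.29 ± 0.36 in A2780CBNDXL and met the rule in both. Both of these calls were lost with normexp, which gave 0.38 in A2780CBN and 0.32 in A2780CBNDXL. A higher SLC22A18 signal in both lines was thus measured with either probe and either control. The 2-fold call for a given line depended on the probe, the control and the background correction used.

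The antisense gene SLC22A18AS, which lies beside SLC22A18 on the opposite strand, was detected in both lines and changed in neither. Its log2 ratios in A2780CBN were -0.49, -1.30, -0.40 and -1.35, lower on the reverse than on the forward arrays, with a mean of -0.88 ± 0.51. In A2780CBNDXL they were 0.71, -0.03, 0.54 and 0.24, with a mean of 0.36 ± 0.33. With the swapped control the means were 0.34 and -0.86, of opposite sign, and the control channels differed by -1.22 ± 0.79 between the arrays of A2780CBNDXL and of A2780CBN. No direction can be given for this gene.

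The promoters of SLC22A15 and SLC22A18 are shown because these were the carriers higher in A2780CBN. They are the 250 bases before the start of each gene in RefSeq on GRCh38.p14, whose coordinates do not compare with the probe positions. The SLC22A15 promoter lies at chr1:115976263-115976512 and that of SLC22A18 at chr11:2902028-2902277, both on the plus strand. Capitals mark the GC box letters GGGCGG on either strand, which read CCGCCC on the other.
SLC22A15 promoter: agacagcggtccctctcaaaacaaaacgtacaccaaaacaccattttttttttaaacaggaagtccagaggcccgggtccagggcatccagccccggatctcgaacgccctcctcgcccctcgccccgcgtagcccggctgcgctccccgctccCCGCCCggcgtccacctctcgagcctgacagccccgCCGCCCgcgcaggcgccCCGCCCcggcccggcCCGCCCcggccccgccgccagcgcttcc
SLC22A18 promoter: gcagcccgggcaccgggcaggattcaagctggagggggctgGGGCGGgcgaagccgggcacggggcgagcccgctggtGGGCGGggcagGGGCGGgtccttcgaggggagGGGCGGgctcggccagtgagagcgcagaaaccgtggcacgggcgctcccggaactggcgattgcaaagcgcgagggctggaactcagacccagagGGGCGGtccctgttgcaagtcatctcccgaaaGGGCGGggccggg
The first holds 4 and the second 6 such matches, and 71.2 and 73.6% of their bases are G or C. Of the 32 carriers, 19 had an entry in the promoter table, and 7 of these held GGGCGG, as did 42.6% of all 35116 promoters of this length. With both strands read, the AP-1 word TGACTCA was in 1 carrier promoter and 1476 of all promoters, the CRE word TGACGTCA in 0 and 578, and the E-box CACGTG in 1 and 2228. The antioxidant response core TGACNNNGC was in 1 carrier promoter and 3830 of all, and the TATA word TATAAA in 3 and 3763. None of the 5 other words was found in the promoters of SLC22A15 and SLC22A18. A match is a description of letters, and binding was not measured.

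SLC22A17, a receptor for lipocalin-2, was detected in all channels of both lines. In A2780CBN its signals were 745, 615, 675 and 553 and those of the control 355, 485, 339 and 425, with a log2 ratio of 0.70 ± 0.39. In A2780CBNDXL they were 626, 673, 498 and 614 and those of the control 386, 313, 310 and 270.0, with a log2 ratio of 0.92 ± 0.26. The resistant line was the brighter channel on all 8 arrays, by less than the limit in the mean. The swapped control gave means of 1.09 in A2780CBN, which met the rule, and 0.52 in A2780CBNDXL. LCN2, which encodes lipocalin-2 itself, was above background on no array. SLC22A14, a carrier of the sperm, was undetected.

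SLC22A23, a member with no settled substrate, gave values that differed from probe to probe. Its 3 probes lie on the minus strand of chromosome 6 of NCBI36, and the order from the 5′ to the 3′ end is A_24_P350228, A_24_P252223 and A_23_P7882. The first is split over 86245 bases of the genome (chr6:3269202-3355446), the second lies at chr6:3215345-3215404, and 991 bases separate it from the third at chr6:3214294-3214353. Bases 31 to 60 of each 60-base probe are shown so that the parts of the transcript that gave different values can be told apart, with the polyadenylation signal word AATAAA in capitals.
A_24_P350228: agagctgtgcccccctggaaaacggttcat
A_24_P252223: cagcctttcAATAAAagttatgcacaaatg
A_23_P7882: gaaatgaatatcttacactgtgattctgtg
The word AATAAA was found in the second of these probes only. It was in 4 of the 47 carrier probes and in 4.16% of all 41000 probes, and ATTAAA in 0 and 2.60%.

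The first and second probes of SLC22A23 were changed in neither line. The log2 ratio at A_24_P350228 was -0.39 ± 0.51 in A2780CBN and 0.13 ± 0.30 in A2780CBNDXL. The probe that stood for the gene, A_24_P252223, gave -0.09 ± 0.14 and 0.32 ± 0.34, and with the swapped control 0.40 and -0.17, of opposite sign, so it shows no direction. Its signals differed between the slides in both channels, from 77.9 to 158 on slide 1 and from 538 to 1516 on slide 2 over both lines. At the third probe, A_23_P7882, A2780CBN gave 217, 244, 188 and 267 and its control 129, 75.5, 137 and 80.7. The resistant channel was the higher one on each of these arrays, more so on the reverse arrays, with a log2 ratio of 1.15 ± 0.65. In A2780CBNDXL the resistant line gave 14.0, 5.94, 7.43 and 9.54, above background on no array, and the control 223, 176, 161 and 183. All arrays of this line had the control far above the resistant channel, and the signal was at least 8.97-fold lower in A2780CBNDXL. Without array 1 this bound was 7.66-fold. The bound is against the line's own control, and the control channels differed by 0.81 ± 0.47 here, A2780CBNDXL minus A2780CBN. This probe met the rule as higher in A2780CBN and as lower in A2780CBNDXL. In A2780CBN the call was lost with the swapped control (0.34) and with normexp (0.39). In A2780CBNDXL it was lost with normexp, and no exact ratio is given there, since the line was above background on no array. The third probe was singled out after its values were seen, and why it differs from the others was not tested.

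**Figure D4:**
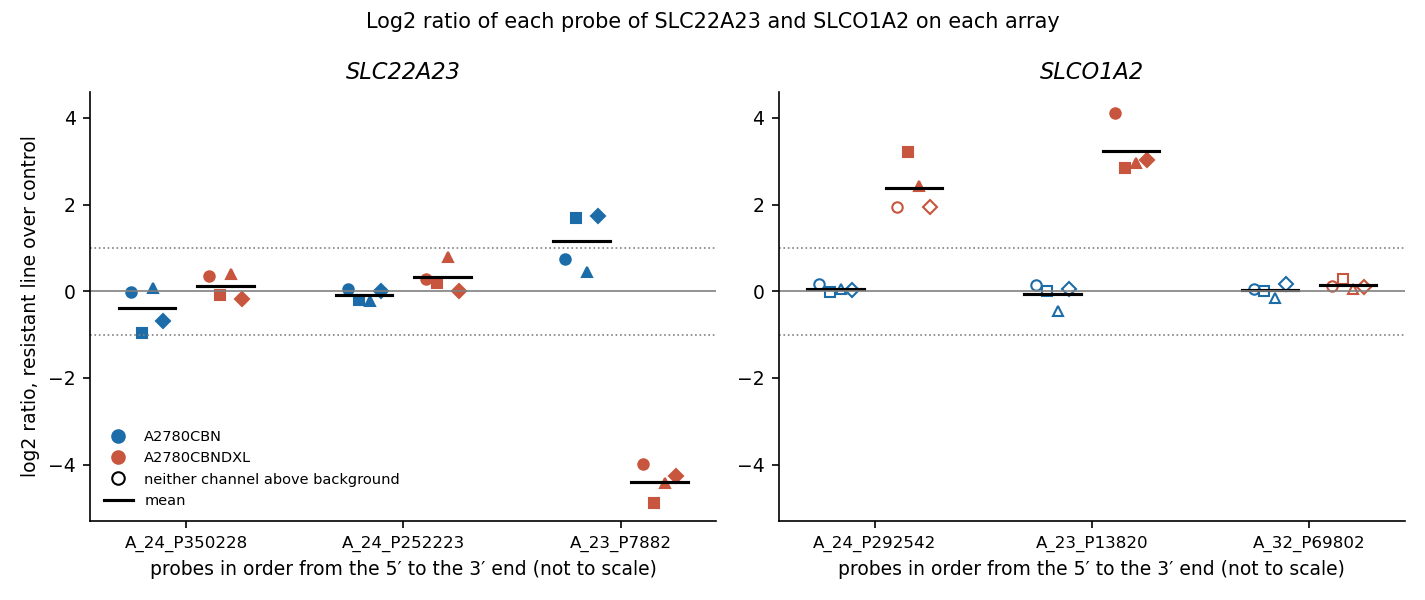
Log2 ratio of the resistant to the control channel on each array for the 3 probes of SLC22A23 and of SLCO1A2, placed in order along the gene and not to scale; circles and triangles are forward arrays 1 and 3, squares and diamonds reverse arrays 2 and 4, bars the mean, open symbols arrays with neither channel above background. The last SLC22A23 probe lies far below 0 in A2780CBNDXL, at no measured size, while the other probes of the gene lie near 0, and the last SLCO1A2 probe was above background on no array.

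Of the 4 members of the SLCO1 group, SLCO1A2 was detected, and in A2780CBNDXL alone. It carries bile salts, hormone conjugates and drugs and is known from the blood-brain barrier. Its probes lie on the minus strand of chromosome 12 of NCBI36, in 5′ to 3′ order A_24_P292542 (chr12:21336481-21338148), A_23_P13820 (chr12:21318695-21318754) and A_32_P69802 (chr12:21309709-21309768). Bases 31 to 60 are shown for the same reason as above, and AATAAA is in none of these probes.
A_24_P292542: acatcaggaaattcatctgcagttcttggg
A_23_P13820: ctttgaaatgtggtgagtcaggggcatgca
A_32_P69802: ggaacaaacttgagcatcaagggcagatga
At A_23_P13820, which stood for the gene, A2780CBNDXL gave signals of 111, 55.1, 38.5 and 47.7, all above background, and its control 6.47, 7.69, 4.94 and 5.80, none above it. In A2780CBN the resistant line gave 5.33, 5.76, 5.59 and 4.95 and the control 4.83, 5.68, 7.70 and 4.79, all at background. A2780CBNDXL was thus the one channel with a signal, and array 1, the array that stood apart, had the highest. SLCO1A2 was at least 2.95-fold higher in A2780CBNDXL than in its control. Without array 1 this bound was 2.14-fold. No exact ratio is given, since the control beside either line was above background on no array. The call was lost with normexp, and when both channels had to be above background. The probe nearest the 5′ end gave 22.0, 41.3, 25.8 and 23.7 in A2780CBNDXL, above background on arrays 2 and 3, with the control at 4.49 to 6.15, and was at least 1.27-fold higher. The probe nearest the 3′ end was above background on no array.

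The liver carriers SLCO1B1 and SLCO1B3 and the thyroxine carrier SLCO1C1 did not meet the detection rule, and SLCO1C1 was above background on 1 array, in the control of A2780CBN.

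Of the 7 members of the SLCO2 to SLCO6 groups, SLCO4A1 was detected. It is a thyroid hormone carrier of many tissues, and its probe A_23_P5903 lies at chr20:60773892-60773951 on the plus strand of NCBI36. In A2780CBN the resistant line gave signals of 513, 435, 388 and 349 and the control 955, 1057, 677 and 941. The control was the higher channel on all these arrays, and the channels did not overlap. The log2 ratio was -1.10 ± 0.30, just past the limit and with the smaller changes on the forward arrays (-0.90 and -0.80, against -1.28 and -1.43). In A2780CBNDXL the resistant line gave 129, 111, 113 and 72.6 and the control 911, 1055, 802 and 772. Every resistant signal of this line was below all 4 control signals by a wide margin, and the log2 ratio was -3.08 ± 0.30, with the control 8.43-fold above the line. The resistant channels of the lines differed by -2.08 ± 0.31 on matched arrays, A2780CBNDXL minus A2780CBN, and the control channels by -0.11 ± 0.31. The call in A2780CBN was lost with the swapped control (-0.997), with background-subtracted signals (-0.96) and with normexp (-0.57). In A2780CBNDXL the same alternatives gave -3.18, -3.10 and -1.64, and the call held under them. The prostaglandin carrier SLCO2A1, SLCO2B1, SLCO3A1, SLCO4C1, SLCO5A1 and SLCO6A1 did not meet the detection rule in either line.

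Other carriers of drugs and organic solutes held 22 genes on the array, of which 12 could be tested in each line. In A2780CBN 1 was higher and none lower, and in A2780CBNDXL 2 were higher and 3 lower. The median log2 ratio of those tested was 0.02 in A2780CBN and -0.27 in A2780CBNDXL. SLC15A3, a lysosomal carrier of histidine and peptides, was higher in both lines, at 3.77 ± 0.29 in A2780CBN, with a mean signal of 1340 against 97.9, and at 1.29 ± 0.26 in A2780CBNDXL. SLC47A1, which exports organic cations and platinum drugs from kidney and liver cells, was lower in A2780CBNDXL, at -1.50 ± 0.18 with a mean signal of 792 against 2249, and stood at 0.64 ± 0.62 in A2780CBN. SLC10A4, a vesicle protein of the bile salt carrier family, was at -1.47 ± 0.30 in A2780CBNDXL and -0.13 ± 0.11 in A2780CBN. The thiamine carrier SLC19A2 was at -1.46 ± 0.55 in A2780CBNDXL and -0.36 ± 0.23 in A2780CBN. SLC29A3, a nucleoside carrier of lysosomes, was higher in A2780CBNDXL, with a mean signal of 371 against 174, and stood at 0.79 ± 0.44 in A2780CBN.

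Of 10 regulators and scaffold proteins of the carriers, 6 could be tested in each line, with a median log2 ratio of -0.31 in A2780CBN and 0.15 in A2780CBNDXL. None was higher, 1 was lower in A2780CBN and 2 in A2780CBNDXL. These calls were of PDZK1 and SLC9A3R1, scaffolds that hold carriers at the cell membrane. PDZK1 had a mean control signal of 104 beside A2780CBN and was at least 4.62-fold lower in that line, where it was above background on no array, and in A2780CBNDXL it passed the limit narrowly, with a mean signal of 43.8 against 88.0. SLC9A3R1 was at -2.09 ± 0.19 in A2780CBNDXL, with a mean signal of 1729 against 7232, and at 0.07 ± 0.44 in A2780CBN. The nuclear receptor NR1I2 and HNF4A, regulators of carrier genes in liver, did not meet the detection rule.

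Of 10 genes of carnitine use, 8 could be tested in each line, and their median log2 ratio was 0.73 in A2780CBN and 0.74 in A2780CBNDXL. In A2780CBN 1 was higher, and in A2780CBNDXL 1 was higher and 1 lower. CPT1A, which couples fatty acids to carnitine for entry into mitochondria, was higher in A2780CBN at 1.81 ± 0.12 and lower in A2780CBNDXL at -1.29 ± 0.08, with mean signals of 429 and 69.6 in the lines and of 122 and 169 in their controls. CROT, which makes carnitine esters in peroxisomes, was at 3.30 ± 0.29 in A2780CBNDXL, with a mean signal of 827 against 83.6, and at 0.89 ± 0.13 in A2780CBN.

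Prostaglandin and thyroid hormone handling, whose substrates several SLCO carriers move, held 11 genes. In A2780CBN 6 were tested, of which 2 were higher and 1 lower, with a median log2 ratio of 0.46. In A2780CBNDXL 7 were tested, of which 2 were higher and 3 lower, with a median of -0.03. SLC7A8, a carrier of amino acids and thyroid hormone, was higher in both lines, at 1.55 ± 0.16 in A2780CBN and 1.52 ± 0.12 in A2780CBNDXL. DIO3, which inactivates thyroid hormone, was lower in A2780CBN at -2.41 ± 0.46 and higher in A2780CBNDXL at 2.23 ± 0.37, with mean signals of 37.5 and 700 in the lines and 200 and 145 in their controls. SLC7A5, a carrier of large neutral amino acids, was at -2.53 ± 0.33 in A2780CBNDXL and -0.67 ± 0.43 in A2780CBN. The aromatic amino acid and thyroid hormone carrier SLC16A10 was at least 2.82-fold lower in A2780CBNDXL and at 0.12 ± 0.68 in A2780CBN. PTGS2, which makes prostaglandins, was at least 3.37-fold lower in A2780CBNDXL and undetected in A2780CBN. The control beside A2780CBN was above background on no array either, with a mean signal of 11.7 against 13.5 in A2780CBNDXL, so no ratio can be given with the swapped control.

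Of the 6 imprinted or adjoining neighbours of SLC22A18, 5 could be tested in each line, with a median log2 ratio of -0.19 in A2780CBN and 0.47 in A2780CBNDXL. CDKN1C, an inhibitor of the cell cycle, was higher in A2780CBN at 1.66 ± 0.09, and was at 0.10 ± 0.29 in A2780CBNDXL. PHLDA2, a growth inhibitor of the placenta, was lower in A2780CBNDXL at -1.85 ± 0.10, and was at -0.56 ± 0.26 in A2780CBN. NAP1L4, TSSC4 and CD81 were changed in neither line.

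These lists together held 7 changed genes of 37 tested in A2780CBN, where 12.6% of all genes were changed, and 15 of 38 in A2780CBNDXL, where 17.0% were. The lists were chosen with earlier results of these data known, so the counts are a description. With normexp 2 and 9 of these ratios were still at least 1 in size and of the same sign, namely SLC15A3 and CDKN1C in A2780CBN, and SLC47A1, SLC10A4, SLC19A2, SLC9A3R1, CROT, SLC7A5, SLC7A8, DIO3 and PHLDA2 in A2780CBNDXL. With the swapped control 6 and 11 were, and for PDZK1 in A2780CBN and SLC16A10 in A2780CBNDXL this rests on a line channel above background on no array. SLC7A8 fell below the limit there in A2780CBN, at 0.44, and SLC29A3 (0.51), CPT1A (-0.86) and PHLDA2 (-0.84) in A2780CBNDXL, where PTGS2 has no measured ratio. The swapped control also took the means of 3 tested genes in A2780CBN and 2 in A2780CBNDXL past the limit that were not called against their own control. In A2780CBN these were SLC29A3 (1.38), CROT (1.02) and PHLDA2 (-1.57).

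**Figure D5:**
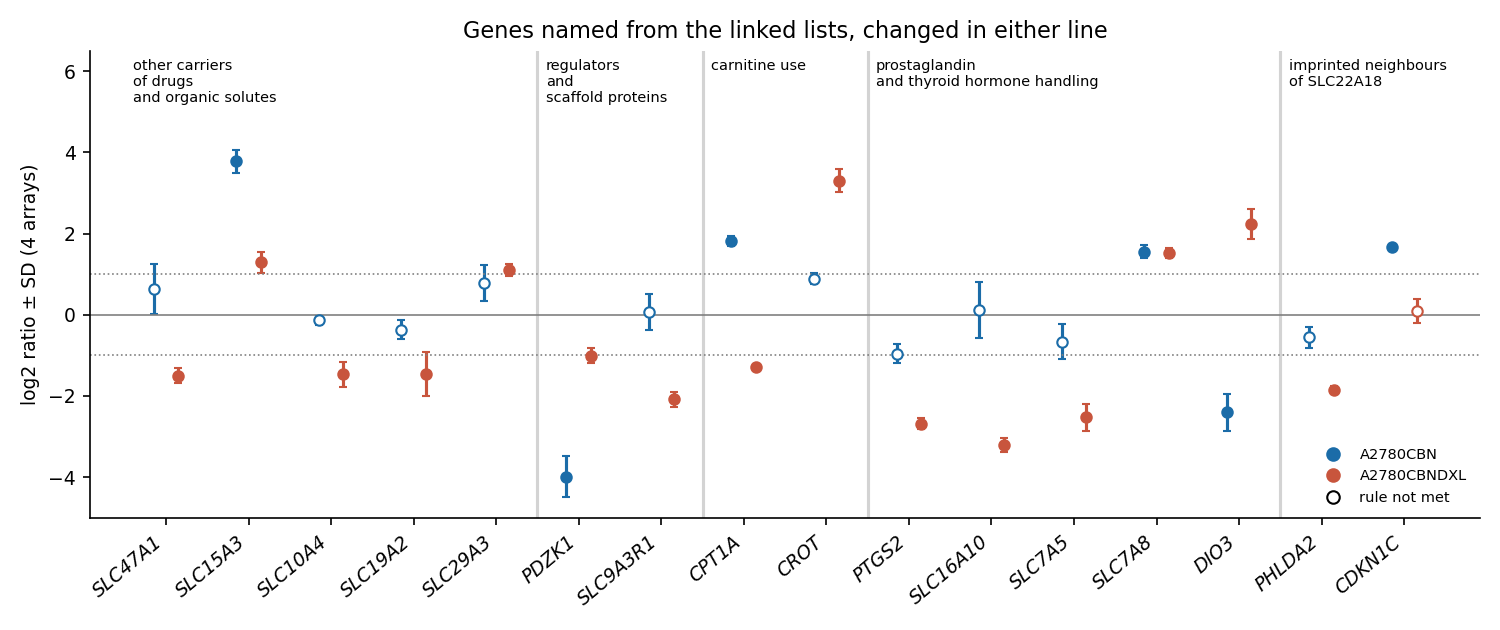
Log2 ratio of the resistant to the control channel, as the mean and SD of 4 arrays, for the genes named from the linked lists, each changed in at least 1 line; open points did not meet the rule in that line, and dotted lines mark the 2-fold limit. For genes with a channel above background on no array, such as PDZK1 in A2780CBN, the plotted mean is no measured size. CPT1A and DIO3 lie on opposite sides of 0 in the lines.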

How the data were processed

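The authors scanned the arrays and deposited the output of Agilent Feature Extraction 10.7.1.1 (slide 1) and 10.7.3.1 (slide 2), in which the processed intensity of each channel is background-subtracted, detrended across the slide and dye-normalized within the array, with a surrogate near background. The deposited raw and background-subtracted intensity columns were used for alternatives only. The labels of the reverse arrays carry the dye entries of the forward arrays, and these arrays were turned over as their name states, so the signs on the reverse arrays, and the means over both directions, rest on that reading. The forward arrays were not turned, and by the rule every changed carrier has the same sign on them. Outlier spots were left out, repeated spots were averaged, and log2 ratios were averaged first over the forward and over the reverse arrays and then between these. No test across samples was possible, since each line is 1 sample. ANOVA with line, dye and slide and limma were run as alternatives with Benjamini-Hochberg adjustment at 0.05, and their p measures labelling and hybridization error only. Further alternatives were normexp with loess, median centring, each array left out, each slide alone, other probe, background and fold rules, and a swapped control, the control signals of the other line's arrays, scaled by Aquantile between arrays matched by slide and labelling direction.

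Named are the carriers detected in either line, with each array where changed, the undetected ones once, and the changed genes of the linked lists, except 1 detected carrier and 1 linked gene that are in the counts only. Members and lists were chosen with earlier results of these data known. Gene names are those of the files. A RefSeq table matched 43 of the 47 carrier probes for current symbols, and promoters are from RefSeq on GRCh38.p14. SLC22A20, SLC22A25 and SLC22A31 are not on the array by these names. Software was Python 3.11.15 with pandas 2.3.3, numpy 2.4.6 and matplotlib 3.10.9, and R 4.3.3 with limma 3.58.1.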

Additional observations from a re-analysis of the deposited data

Results flagged for a closer look

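The SLC22A23 probe A_23_P7882 moved up on all 4 arrays of A2780CBN and down on all 4 of A2780CBNDXL, which is what flagged it. Its log2 ratio in A2780CBNDXL minus that in A2780CBN came out at -5.55, which is no measured size, because A2780CBNDXL was above background on no array at this probe. What the signals support is a level in A2780CBNDXL at least 8.97-fold below the line's own control, or 7.66-fold without array 1. The difference was not tested, since each line is 1 sample.

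For the SLCO1A2 probe A_23_P13820, array 1 of A2780CBNDXL lay far from the other arrays of the line. The gap from its log2 ratio to the next array was 0.843 of the whole range, above Dixon's critical value for 4 values. A total of 26 such sets of 4 arrays, over 14 probes, were examined and this was the 1 set apart. The critical value sets apart about 1 in 20 sets of independent values. These sets mix both labelling directions and share arrays, so that rate cannot be applied to them and nothing is concluded from the count. The control at this probe was above background on no array, so these ratios are inexact. The cause was not tested.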

How the results depend on the processing

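The count of changed carriers was 3 in each line, and it or the count of detected carriers, 10 in each line, moved by over 1.5 times as follows. With normexp and loess it was 1 in A2780CBN (SLC22A18) and 1 in A2780CBNDXL (SLCO4A1), and over all genes 608 and 1177 were changed in place of 2259 and 2902. With a 1.5-fold limit it was 6 and 5, where 4868 and 5713 of all genes were changed. In A2780CBNDXL it was 5 with log2 ratios averaged over all probes of a carrier and, in an alternative added after seeing the data, 5 when any probe of the gene met the rule, each time with SLC22A18 and SLC22A23 added, and 1 when both channels had to be above background. Detected on at least 1 array were 16 carriers in A2780CBN and 18 in A2780CBNDXL. Leaving out each array in turn gave 3 to 4 in each line and included all 3 carriers of the full set each time, as did each slide alone. The ANOVA and limma listed the same 3 carriers in each line. In A2780CBN background-subtracted signals gave 3, with SLC22A5 in place of SLCO4A1, and the swapped control gave 2, SLC22A15 and SLC22A17. In A2780CBNDXL it gave 4. Requiring 3 arrays above background, also added after seeing the data, gave 4 and 3. Of 92 log2 ratios of carriers recomputed under settings that keep all arrays, 47 were within 1 SD of the value given, 45 had moved further and 70 had its sign, and no call turned its sign. Leaving out an array or a slide kept the sign of 136 of 144 ratios, and cannot move a mean by as much as the SD of the 4 arrays, so the size of those shifts tests nothing. Normexp moved 15 of 24, all of them toward 0, and the swapped control moved 16 of 24. Beyond the rule or construction of a setting, the cause was not tested. No paired analysis was possible because each line is 1 sample and its arrays are repeats. Signal over background limits the results, as 21 carriers did not meet the detection rule in either line and the changes of SLCO1A2 and the last SLC22A23 probe have a lower bound only.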
